A study of Mus musculus and Homo sapiens
Mus musculus with 12 samples.

Results

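The NMDA receptor is a glutamate-gated cation channel of excitatory synapses, and its subunits are encoded by 7 genes, Grin1, Grin2a, Grin2b, Grin2c, Grin2d, Grin3a and Grin3b. These genes were taken by symbol from the count files of 7 mouse brain libraries, which together list 34496 genes. All 7 were listed in every library. Their values were described across 11198 nuclei, across groups of nuclei defined by other genes and across the 4 groups of libraries.

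GluN1, the product of Grin1, is present in every NMDA receptor and binds the co-agonist glycine or D-serine. The GluN2 subunits, encoded by Grin2a to Grin2d, bind glutamate and set the deactivation speed, calcium entry and magnesium block of the channel. In the forebrain GluN2B dominates early in life and GluN2A is added as synapses mature, whereas GluN2C is known from cerebellar granule cells and GluN2D from interneurons and diencephalic nuclei. The GluN3 subunits, encoded by Grin3a and Grin3b, bind glycine and lower calcium entry, and GluN3B is known mainly from motor neurons.

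The libraries were made by snHH-seq, which reverse transcribes total RNA inside fixed nuclei and adds a cell barcode in droplets. The brains were those of wild-type C57BL/6J male mice of 6 to 8 weeks, with no allele or treatment that differed between groups. How many mice were used, and whether tissue was pooled, is not stated, so that p-values measure the spread between libraries, which may be technical. By their titles the libraries fall into No_index_frozen (n = 2), Index_frozen (n = 2), No_index_fresh (n = 2) and Index_fresh (n = 1), where frozen and fresh give the state of the tissue from which nuclei were isolated and Index marks a reverse transcription primer that carries a well-specific barcode, the preindex. Titles and treatment labels disagreed on the primer in 4 libraries. The titles were used here, since the nucleus barcodes were 40 bases long in every library titled Index and 30 bases in every library titled No_index. By the treatment labels, the primer could not be told apart from the storage.

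The primer oligos are shown because the title Index marks a primer that carries the preindex. The study's primer list gives a handle in lower case, then the preindex of 10 bases, which differs between wells, and then a tail in capitals of 7 random bases (N) or of 20 T. Only the parts around the preindex are printed, and the sequence used without a preindex is not given in the sources used here.
handle: ggagttggagtgagtggatgagtgatg
random tail: NNNNNNN
poly-T tail: TTTTTTTTTTTTTTTTTTTT

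A unique fragment identifier, or UFI, counts each cDNA fragment once, and the files hold UFIs per gene and nucleus. Libraries held 700 to 3100 nuclei and 8605214 to 42439731 UFIs, with a median of 9012 to 27543 UFIs per nucleus, deeper in the No_index_fresh libraries than in the others. Libraries were not of equal makeup. The Index_frozen libraries held 268 and 213 nuclei of a kidney tubule-like cluster that no other library had, Index_fresh held 20 nuclei rich in liver transcripts, and nuclei of the 2 cerebellar clusters made up 4.30% to 13.25% of each No_index library but 0% to 0.0968% of each Index library. Libraries shared 0 to 10 nucleus barcodes per pair, but barcodes of unlike length cannot match between Index and No_index libraries. Over the 30 bases of the barcode added in droplets, pairs of libraries shared 3 to 35. The kidney tubule-like nuclei carried 28 and 26 preindexes, of which 3 and 0 were shared with other nuclei of the library, so that most were reverse transcribed in other wells than brain nuclei. The storage, primer and gate comparisons are given with and without kidney, liver and cerebellar nuclei, and the interaction with and without kidney and liver nuclei.

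Grin1 had 46137 UFIs, Grin2a 334122, Grin2b 438292, Grin2c 1927, Grin2d 4917, Grin3a 18582 and Grin3b 32. Since random primers copy introns and a long gene gives more fragments, genes were compared with each other only per kb of their span in the GENCODE annotation (GRCm38). Grin2a (chr16:9567898-9995560, minus strand) and Grin2b (chr6:135713233-136173511, minus strand) span 427.7 and 460.3 kb, of which 4.19% and 5.40% is exonic. Grin1 (chr2:25291181-25319187, minus strand) spans 28.0 kb, Grin2c (chr11:115249169-115267243, minus strand) 18.1 kb, Grin2d (chr7:45831883-45878378, minus strand) 46.5 kb, Grin3a (chr4:49661611-49845744, minus strand) 184.1 kb and Grin3b (chr10:79970715-79977190, plus strand) 6.48 kb.

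Per kb of span, Grin1 was the most abundant subunit and the order of abundance differed from that of the raw totals. The order depends on this divisor, since 34.6% of the Grin1 span is exonic, against 4.19% of Grin2a and 5.40% of Grin2b. Per exonic kb Grin1 would not lead, with 46137 UFIs over 9.7 exonic kb against 334122 over 17.9 for Grin2a. In CPM, the UFIs of a gene divided by all UFIs of the library and multiplied by 1000000, per kb, Grin1 reached 9.15 ± 1.27 (mean ± SD, n = 7 libraries), Grin2b 5.13 ± 0.532 and Grin2a 4.25 ± 0.290. Grin2c stood at 0.661 ± 0.355, Grin2d at 0.583 ± 0.133 and Grin3a at 0.560 ± 0.0101, which differed by less than the SD of Grin2c. Grin3b was at 0.0273 ± 0.00644. Its 32 UFIs came from 32 nuclei, 5 of them kidney tubule-like, and it passed no filter on low counts, so that it is listed below only where a count allows. Genes on the opposite strand overlap Grin2d (Kdelr1, 2342 UFIs) and Grin3b (Tmem259, 3076 UFIs), and reads of the partners could enter the Grin2d and Grin3b counts if strand were not used. The study's methods describe UFI counts as strand-specific, but the setting of the counting tool is not given in the sources used here. The antisense gene Grin1os held 44 UFIs against 46137 of Grin1.

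The sequences before the start of Grin1 and Grin2c are shown because these subunits differed most in how widely they were detected among those with more than 100 UFIs and a promoter entry, with a UFI of Grin1 in 9428 and of Grin2c in 770 nuclei. Entries were found for 4 of the 7 genes in RefSeq (GRCm38.p6), with none for Grin2a, Grin2b and Grin3a. Each run gives the 250 bases upstream of the start, 5′ to 3′ on the gene's strand, with the GC box GGGCGG or its reverse complement CCGCCC in capitals. The Grin1 run (chr2:25319188-25319437, minus strand) held 0 GC boxes and 58.8% G or C. The Grin2c run (chr11:115267244-115267493, minus strand) held 3 GC boxes, of which the last 2 share 1 base, and 68.8% G or C. Of 32851 promoters of the same length, 32.7% held a GC box, and their median was 52.4% G or C.
Grin1: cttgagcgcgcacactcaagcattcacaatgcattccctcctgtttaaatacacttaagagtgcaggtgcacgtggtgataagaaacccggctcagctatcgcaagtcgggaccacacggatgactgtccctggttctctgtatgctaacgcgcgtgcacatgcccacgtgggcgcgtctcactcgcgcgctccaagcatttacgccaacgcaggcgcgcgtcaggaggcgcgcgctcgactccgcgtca
Grin2c: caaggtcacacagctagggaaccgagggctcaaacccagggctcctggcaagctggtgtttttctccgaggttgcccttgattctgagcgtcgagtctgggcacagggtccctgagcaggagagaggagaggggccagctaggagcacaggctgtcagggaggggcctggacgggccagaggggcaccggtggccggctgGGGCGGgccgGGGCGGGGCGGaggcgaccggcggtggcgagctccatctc

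Nuclei were clustered on genes other than the subunits, and 25 clusters resulted. A cluster was named, as "-like", only from a list of marker genes, and 6 clusters without enough markers are called by a pair of their leading genes. Levels by cluster are descriptions over libraries with at least 5 nuclei in the cluster. They are given in CPM of all UFIs of that cluster in that library, as mean ± SD over libraries. In such sums, fewer expressing nuclei and less RNA per nucleus cannot be told apart.

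Grin1, the obligatory subunit, varied least among the neuron-like clusters. Its level ran from 320 ± 31.8 CPM in layer 5 projection neuron-like nuclei, 319 ± 29.7 in cerebellar granule neuron-like nuclei and 304 ± 76.2 in layer 6 corticothalamic neuron-like nuclei to 131 ± 20.8 in the Fign and Six3 cluster and 115 ± 39.4 in the Syt9 and Chrna3 cluster. It was 214 ± 16.0 CPM in Purkinje neuron-like nuclei and 0.637 ± 0.901 in kidney tubule-like nuclei. Of the 24 neighbouring pairs in this order, 2 differed by more than the larger SD of the pair, the step below the Purkinje neuron-like nuclei and the step down to the kidney nuclei.

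Grin2a, which gives fast-closing receptors, was highest in hippocampal nuclei. In CA pyramidal neuron-like nuclei it was 3496 CPM in the lowest, 4315 in the median and 4977 in the highest library, and in dentate granule neuron-like nuclei 3847, 4239 and 4563 CPM. These 2 clusters did not differ beyond their spread, and every library of either lay above every library of upper layer cortical neuron-like nuclei, the next in order, at 2025 to 3106 CPM (mean 2419 ± 446). Rorb cortical, near-projecting and Adarb2 interneuron-like nuclei followed at 2317 ± 325, 2303 ± 312 and 2253 ± 707 CPM. Levels were 861 ± 76.2 in the Ano2 and Prdm16 cluster and 826 ± 79.1 in the Baiap3 and Rmst cluster. Below a further step came the Fign and Six3 cluster at 286 ± 115 and Purkinje neuron-like nuclei at 209 ± 149 CPM.

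Grin2b, which gives slower receptors, was highest in hippocampal and upper layer cortical nuclei. It was 3769 ± 356 CPM in CA pyramidal neuron-like nuclei, 3500 ± 278 in upper layer cortical neuron-like nuclei, 3143 ± 273 in dentate granule neuron-like nuclei and 3062 ± 175 in the Abi3bp and Ndst4 cluster. The first and second of these clusters did not differ beyond their spread. With the subunits kept among the variable genes, a cluster called by Fibcd1 and Raver2 was highest for Grin2b, at 3723 ± 355 CPM. Both genes were among the leading genes of the CA pyramidal neuron-like cluster. Thalamic neuron-like nuclei had 2957 ± 293 CPM and striatal medium spiny neuron-like nuclei 2678 ± 185. Cerebellar granule neuron-like nuclei, at 1292 ± 116 CPM, lay between glial clusters. The lowest neuron-like clusters were the Syt9 and Chrna3 cluster at 482 ± 599 and Purkinje neuron-like nuclei at 178 ± 185 CPM. Grin1 was 115 ± 39.4 CPM in the former, its lowest level among neuron-like clusters, and 214 ± 16.0 CPM in the latter.

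Grin2c showed the narrowest pattern. In astrocyte-like nuclei it was 28.2 CPM in the lowest, 138 in the median and 184 in the highest library. The lowest value came from No_index_frozen replicate 1, with 16 astrocyte-like nuclei. Cerebellar granule neuron-like nuclei had 92.4 ± 21.2 CPM over the 4 No_index libraries, thalamic neuron-like nuclei 64.0 ± 25.1 over 7 libraries and the Fign and Six3 cluster 52.6 ± 24.1 over 3. The next cluster, oligodendrocyte precursor-like, had 24.0 ± 22.4 CPM, while Rorb cortical neuron-like nuclei had 1.41 ± 0.920, layer 6 corticothalamic neuron-like nuclei 0.684 ± 1.11 and upper layer cortical neuron-like nuclei 0.647 ± 0.979. After each nucleus was thinned to 5000 UFIs, a Grin2c UFI was found in 92 of 207 astrocyte-like nuclei (44.4%, 95% Clopper-Pearson interval 37.6 to 51.5%), in 86 of 265 cerebellar granule neuron-like nuclei (32.5%), in 70 of 347 thalamic neuron-like nuclei (20.2%) and in 10 of 49 nuclei of the Fign and Six3 cluster (20.4%). The share was 0.417% in kidney tubule-like nuclei and 0.375% in upper layer cortical neuron-like nuclei. The kidney nuclei came only from Index_frozen libraries and mostly from other wells than brain nuclei. They therefore give no background for the wells of brain nuclei or for No_index libraries.

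Grin2d, which gives very slowly closing receptors, was high in 6 clusters and low in the remaining 19. It was 83.7 to 128.1 CPM (median 96.5) in Adarb2 interneuron-like nuclei and 63.0 to 130 CPM (median 102) in thalamic neuron-like nuclei. Lhx6 interneuron-like nuclei had 72.6 ± 14.9 CPM, the Baiap3 and Rmst cluster 71.4 ± 10.9, the Ano2 and Prdm16 cluster 66.1 ± 19.9 and the Fign and Six3 cluster 60.8 ± 14.5. The next cluster had 27.0 ± 8.54 CPM, a step beyond the larger SD. Striatal medium spiny neuron-like nuclei, which are GABAergic like the interneurons, had 2.87 ± 1.66 CPM. At 5000 UFIs per nucleus, 39.4% of Adarb2 interneuron-like nuclei (interval 34.1 to 45.0%) and 37.8% of thalamic neuron-like nuclei held a Grin2d UFI, against 1.05% of striatal medium spiny neuron-like and 0.833% of kidney tubule-like nuclei.

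Grin3a was led by an interneuron and a glial cluster. In Lhx6 interneuron-like nuclei it was 323 CPM in the lowest, 418 in the median and 515 in the highest library, and in oligodendrocyte precursor-like nuclei 254, 328 and 506 CPM, within the spread of the former. The Fign and Six3 cluster had 312 ± 86.3 CPM, the Syt9 and Chrna3 cluster 290.2 ± 77.4, the Oprk1 and Nr4a2 cluster 251 ± 82.2 and the Baiap3 and Rmst cluster 189 ± 21.5. Upper layer cortical neuron-like nuclei had 18.8 ± 9.91 CPM, and Purkinje neuron-like nuclei, at 4.98 ± 6.10, had the lowest mean, within the spread of kidney tubule-like nuclei. At 5000 UFIs, a Grin3a UFI was found in 78.0% of oligodendrocyte precursor-like nuclei (85 of 109) but in 47.3% of Lhx6 interneuron-like nuclei (294 of 621), although the mean CPM was higher in the latter. With a finer clustering the highest Lhx6 interneuron-like cluster reached 908 ± 177 CPM, and with fewer principal components it had 325 ± 63.5, so the level of this cluster depended on its borders.

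Of the 32 Grin3b UFIs, 12 fell in the Baiap3 and Rmst cluster, 5 in striatal medium spiny neuron-like and 5 in kidney tubule-like nuclei. No order was read from these counts.

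**Figure D1:**
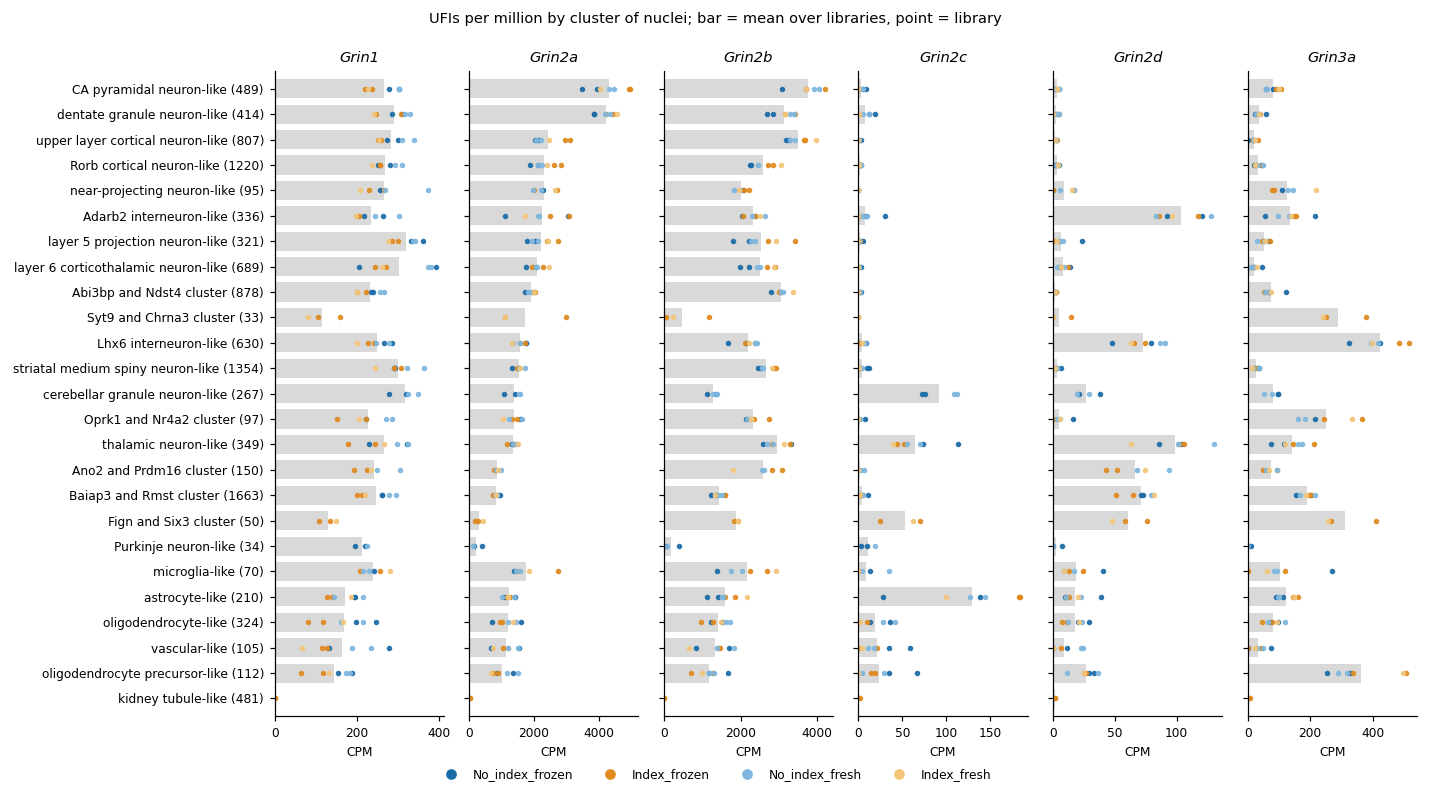
CPM (horizontal axis, linear and starting at 0) of 6 subunits in each of 25 clusters (vertical axis, number of nuclei in brackets). Bars are means over libraries and points are libraries coloured by group. Grin2a peaks in the hippocampal clusters at 4313 and 4217 CPM, Grin2c in astrocyte-like and cerebellar granule neuron-like nuclei at 129 and 92.4 CPM, and Grin3a in Lhx6 interneuron-like and oligodendrocyte precursor-like nuclei at 422 and 361 CPM.

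The balance between Grin2a and Grin2b does not depend on library scaling or gene length when groups of nuclei are compared, so it was expressed as the share of Grin2a in the UFIs of both genes. Over all nuclei this share was 43.6 ± 0.970% (n = 7 libraries). It was 57.3 ± 1.48% in dentate granule neuron-like nuclei, 53.4 ± 2.98% in near-projecting neuron-like nuclei and 53.3 ± 2.88% in CA pyramidal neuron-like nuclei. Purkinje neuron-like nuclei had 58.5 ± 11.4% over 3 libraries and cerebellar granule neuron-like nuclei 51.8 ± 5.29% over 4. Thalamic neuron-like nuclei had 31.6 ± 2.74%, the Ano2 and Prdm16 cluster 25.5 ± 4.83% and the Fign and Six3 cluster 12.997 ± 4.46%. The Abi3bp and Ndst4 cluster had 38.4 ± 1.26%, upper layer cortical neuron-like nuclei 40.6 ± 3.19% and Rorb cortical neuron-like nuclei 47.2 ± 2.27%. The highest share, 83.4 ± 12.01%, was that of the Syt9 and Chrna3 cluster, from 3 libraries and 33 nuclei in all.

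**Figure D2:**
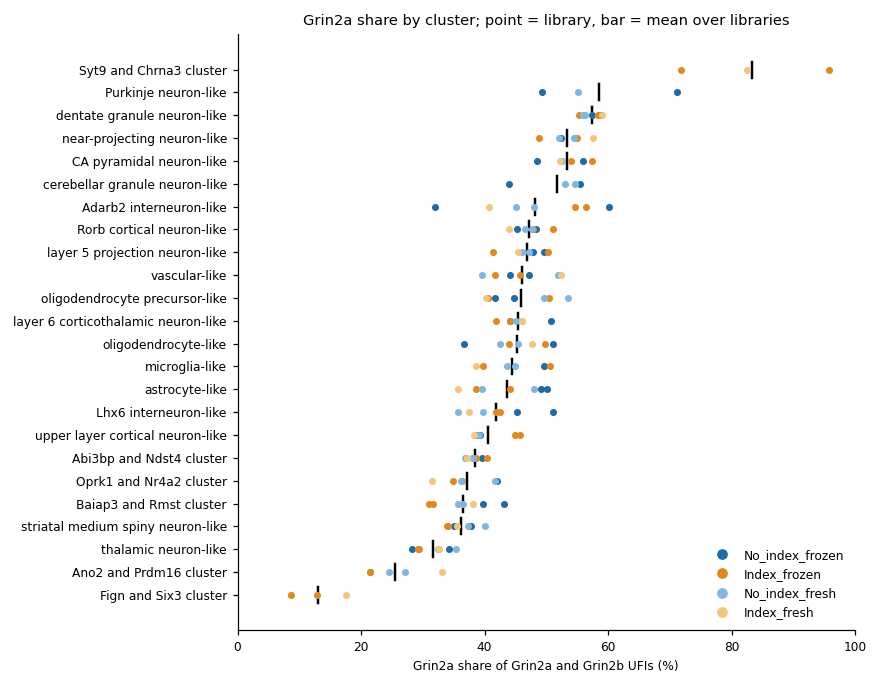
Share of Grin2a in the summed UFIs of Grin2a and Grin2b (percent, horizontal axis) for each cluster except kidney tubule-like nuclei (vertical axis). Points are libraries coloured by group and bars mark their mean. Shares run from 12.997% in the Fign and Six3 cluster to 83.4% in the Syt9 and Chrna3 cluster, with 57.3% in dentate granule neuron-like nuclei.

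To compare transmitter types without the clustering, nuclei were gated on transmitter genes alone. A glutamatergic nucleus held at least 2 UFIs of the vesicular glutamate transporters Slc17a6 and Slc17a7 together and 0 of Gad1, Gad2 and Slc32a1, which make or load GABA, and a GABAergic nucleus the reverse. Glial clusters were not left out of this step. The gates took 3587 glutamatergic nuclei, with a median of 15433 UFIs, and 2886 GABAergic nuclei, with a median of 12130 UFIs. The other nuclei were left out, 487 with at least 2 UFIs of each set and 4238 that met none of these rules. The 4238 take in nuclei with fewer than 2 UFIs of either set. By the rules they also take in any nucleus with at least 2 UFIs of a set and fewer than 2, but not 0, of the other.

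Grin2a was higher in glutamatergic nuclei and Grin2d and Grin3a in GABAergic nuclei, in every library and with no overlap between gates. Grin2a was 1895 to 2389 CPM (median 2117) in glutamatergic against 955.0 to 1333 CPM (median 1188) in GABAergic nuclei, a log2 difference of 0.91 ± 0.043 (SE, adjusted p = 3.75e-09, edgeR's quasi-likelihood test with Benjamini-Hochberg adjustment and the library as a block). Grin2d was 12.1 to 25.2 CPM (median 21.8) against 32.2 to 65.8 CPM (median 48.3), and fell by 1.35 on the log2 scale (SE 0.10, adjusted p = 2.50e-07 by edgeR). Grin3a was 62.9 to 89.4 CPM (median 74.4) against 131 to 185 CPM (median 174), and fell by 1.07 (SE 0.083, adjusted p = 2.92e-07 by edgeR).

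Grin2b and Grin2c were higher in glutamatergic nuclei of 7 of 7 libraries, but the ranges of the gates overlapped. Grin2b was 2240 to 3026 against 1571 to 2324 CPM, a log2 difference of 0.45 ± 0.047 (adjusted p = 4.75e-06 by edgeR). Grin2c was 4.04 to 21.8 against 3.90 to 12.6 CPM, a log2 difference of 0.90 ± 0.21 (adjusted p = 0.00341 by edgeR). In glutamatergic nuclei Grin2c was 13.7 to 21.8 CPM in No_index and 4.04 to 6.16 CPM in Index libraries, and cerebellar nuclei were nearly absent from the latter. Without kidney, liver and cerebellar nuclei the No_index range was 9.94 to 14.2 CPM and the log2 difference of Grin2c between gates 0.64 ± 0.18 (adjusted p = 0.00964 by edgeR). Grin1 was 233 to 309 against 216 to 295 CPM and higher in 5 of 7 libraries, with a log2 difference of 0.15 ± 0.049 (adjusted p = 0.0289 by edgeR), a call that was lost when libraries were scaled by their totals alone (0.08 ± 0.053, adjusted p = 0.277). The Grin1 call was also lost without any one of No_index_frozen replicate 1, No_index_fresh replicate 1 or Index_fresh replicate 1 (adjusted p = 0.0636, 0.0849 and 0.0624 by edgeR).

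All 6 subunits tested thus passed in this comparison, in which 39.3% of 14596 genes were called, 2787 higher and 2947 lower. Under scaling by library totals alone 2261 genes were called higher and 4006 lower, and the other 5 subunits kept their calls. Without kidney, liver and cerebellar nuclei all 6 subunits kept direction and call. Within neuron-like clusters alone all 6 were called as well, with 40.1% of 14398 genes. The Grin2a share of Grin2a and Grin2b UFIs was 44.5 ± 1.05% in glutamatergic and 36.9 ± 1.44% in GABAergic nuclei. It was higher in 7 of 7 libraries by 5.35 to 9.23 percentage points (mean 7.64 ± 1.49), with p = 0.0156 in a two-sided exact sign-flip permutation test, the smallest p that 7 pairs allow.

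The glutamatergic gate joins nuclei with Slc17a7, the transporter of cortex and hippocampus, and with Slc17a6, that of thalamus and brainstem, and the subunits differed between them. Sets with either transporter alone (2316 and 537 nuclei) were compared directly, a comparison added after seeing the data. Grin2d was 1.66 to 7.16 CPM (median 3.92) in Slc17a7 nuclei and 75.4 to 102 CPM (median 85.2) in Slc17a6 nuclei, a log2 difference of -4.41 ± 0.16 (adjusted p = 8.79e-12, edgeR's quasi-likelihood test with Benjamini-Hochberg adjustment). Every Slc17a6 value also lay above every GABAergic value of Grin2d. Grin3a was 38.7 to 56.7 against 150.3 to 247 CPM, a log2 difference of -1.80 ± 0.13 (adjusted p = 1.01e-08 by edgeR).

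Grin2a and Grin2b went the other way. Grin2a was 2254 to 2641 CPM in Slc17a7 and 856 to 1088 CPM in Slc17a6 nuclei, a log2 difference of 1.52 ± 0.061 (adjusted p = 2.84e-11 by edgeR). Grin2b was 2527 to 3331 against 1202 to 1913 CPM, a log2 difference of 1.05 ± 0.063 (adjusted p = 1.98e-09 by edgeR). The ranges did not overlap for either gene, nor for Grin2d and Grin3a. Grin1, at 0.24 ± 0.077 (adjusted p = 0.0193 by edgeR), overlapped and lost its call under scaling by library totals (0.08, adjusted p = 0.430), and Grin2c, at -0.81 ± 0.40 (adjusted p = 0.125 by edgeR), did not pass. The Slc17a7 gate takes in cerebellar granule neuron-like nuclei, and without kidney, liver and cerebellar nuclei Grin2c passed at -1.66 ± 0.35 (adjusted p = 0.00109 by edgeR), with 0.495 to 2.96 CPM in Index and 4.08 to 11.4 CPM in No_index libraries for Slc17a7 nuclei. The other 5 subunits kept direction and call there. In this comparison 5 of 6 subunits and 41.8% of 11418 genes were called, 2282 higher and 2489 lower, or 1631 higher and 3847 lower under scaling by totals, where Grin1 alone of the subunits lost its call. The Grin2a share was 45.6 ± 1.27% in Slc17a7 and 37.9 ± 2.51% in Slc17a6 nuclei and higher in 7 of 7 libraries (mean difference 7.76 percentage points, exact p = 0.0156, two-sided sign-flip permutation test).

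The direction of the transmitter comparison therefore rested on which transporter was taken. For Slc17a6 nuclei against GABAergic nuclei, Grin2a and Grin2b were lower, at -0.36 ± 0.058 and -0.42 ± 0.058 on the log2 scale (adjusted p = 0.000297 and 7.39e-05 by edgeR), and Grin2d was higher at 0.73 ± 0.11 (adjusted p = 0.000168). Grin3a, at 0.14 ± 0.097 (adjusted p = 0.346 by edgeR), and Grin1, at -0.05 ± 0.079 (adjusted p = 0.714), did not pass. Grin2c was higher by 1.30 ± 0.23 (adjusted p = 0.000561 by edgeR). For Slc17a7 nuclei against GABAergic nuclei, Grin2c was at 0.40 ± 0.40 (adjusted p = 0.459 by edgeR), cerebellar nuclei included, and the other 5 subunits kept the direction of the joined gate.

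**Figure D3:**
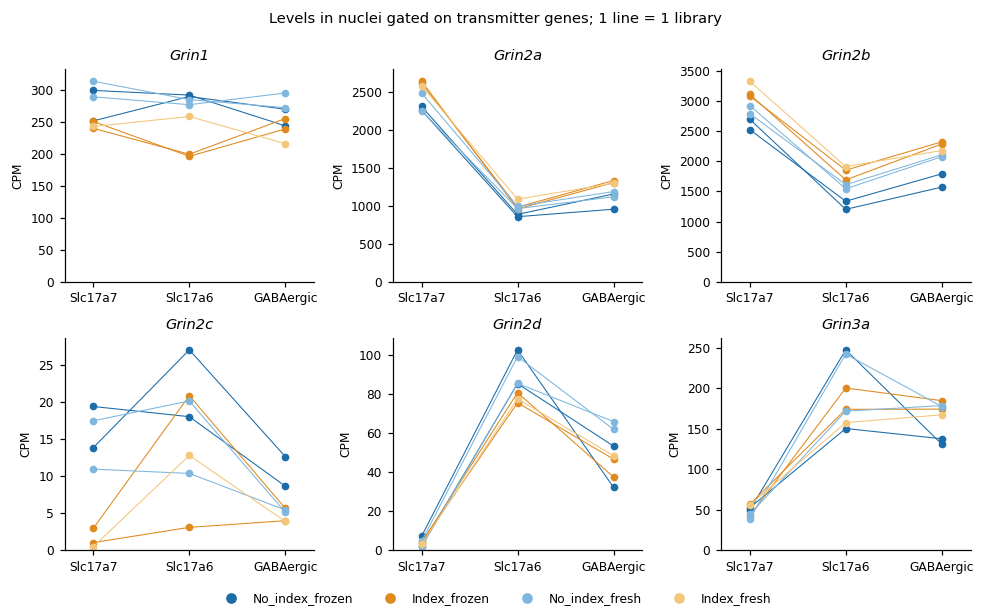
CPM of 6 subunits (vertical axes) in nuclei of the Slc17a7, Slc17a6 and GABAergic gates (horizontal axis), with each line joining the values of 1 library, coloured by group. Grin2a and Grin2b are highest with Slc17a7, while Grin2d is 1.66 to 7.16 CPM with Slc17a7, 75.4 to 102 CPM with Slc17a6 and 32.2 to 65.8 CPM in GABAergic nuclei.

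A list of 32 genes whose products bind, anchor or modify the receptor or carry its downstream signal was read beside the subunits. Between glutamatergic and GABAergic nuclei, 12 were higher and 6 lower, against 39.3% called of all genes, with a median log2 difference of 0.11 against -0.02 over all genes tested. Among the highest were the kinase subunit Camk2a (0.98 ± 0.039, adjusted p = 6.30e-10 by edgeR), the scaffold Dlg1 (0.82 ± 0.050), the scaffold Shank1 (0.54 ± 0.098) and the kinase Src (0.45 ± 0.046). The lowest were the actin-binding Actn2 (-2.18 ± 0.062), the nitric oxide synthase Nos1 (-0.89 ± 0.15), the auxiliary protein Neto1 (-0.68 ± 0.062), the dendritic motor Kif17 (-0.50 ± 0.058) and the glycine transporter Slc6a9 (-0.28 ± 0.10, adjusted p = 0.0455 by edgeR). The Slc6a9 call was lost without any one library other than Index_frozen replicate 2 and No_index_fresh replicate 2 (adjusted p = 0.0591 to 0.140 by edgeR), with DESeq2 (adjusted p = 0.121) and without kidney, liver and cerebellar nuclei (adjusted p = 0.0742 by edgeR). Between Slc17a7 and Slc17a6 nuclei, 21 partners were higher and 5 lower, against 41.8% called of all genes. The scaffold Dlgap2 (2.03 ± 0.065), the scaffold Homer1 (1.95 ± 0.11) and Neto1 (1.80 ± 0.092) were the highest, and Nos1 (-0.88 ± 0.17) and Slc6a9 (-0.66 ± 0.17) the lowest.

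Within the striatal medium spiny neuron-like cluster, nuclei were gated on the dopamine receptor genes Drd1 and Drd2 and on the gene Adora2a. A Drd1 nucleus held at least 2 UFIs of Drd1 and none of Drd2 or Adora2a (311 nuclei). A Drd2 nucleus held at least 2 UFIs of Drd2 and Adora2a together and none of Drd1 (516 nuclei). Some Drd2 nuclei may therefore hold UFIs of Adora2a alone. Grin3a was 26.9 ± 14.7 CPM in Drd1 and 12.7 ± 10.1 CPM in Drd2 nuclei, higher in 6 of 7 libraries, from 161 and 61 UFIs. Grin2b was 2804 ± 186 against 2558 ± 282 CPM and higher in 7 of 7 libraries. For Grin1 and Grin2a the direction differed between libraries, with 4 of 7 higher in Drd1 nuclei. No test was made over these nuclei.

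In glial clusters, levels of the neuronal subunits were set beside those of neuronal transmitter genes. How UFIs of transmitter genes came into glial nuclei was not tested. As a ratio to the mean of all brain nuclei of the same library, Grin1 was 0.661 ± 0.116 in astrocyte-like, 0.644 ± 0.189 in oligodendrocyte-like and 0.547 ± 0.132 in oligodendrocyte precursor-like nuclei. Slc17a7, which these glia should lack, had ratios of 0.603 ± 0.115, 0.670 ± 0.182 and 0.675 ± 0.211, which lay within the spread of the Grin1 ratios. In oligodendrocyte precursor-like nuclei the transmitter genes did not move together, with Gad1 at 0.627 ± 0.215, Gad2 at 0.0855 ± 0.0828 and Slc32a1 at 0.123 ± 0.159, the last pair below Grin1. Grin2a (0.658, 0.639 and 0.558) and Grin2b (0.656, 0.589 and 0.505) had ratios in the same range. In microglia-like nuclei the ratio of Grin1 was 0.937 ± 0.190 and that of Slc17a7 1.00 ± 0.259.

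Grin2c in astrocyte-like nuclei was 15.5 ± 11.7 times the brain mean, and Grin3a in oligodendrocyte precursor-like nuclei 3.42 ± 0.933 times. Over all nuclei Grin2c was 3.83 to 7.45 CPM in the Index and 14.4 to 20.3 CPM in the No_index libraries. The Grin2c ratios therefore join libraries with unlike denominators. Glial nuclei without any transmitter UFI were a selection added after seeing the data. Among them the ratio of Grin1 was 0.332 ± 0.258 in astrocyte-like nuclei (4 libraries) and 0.154 ± 0.280 in oligodendrocyte-like nuclei (7 libraries). There Grin2c in astrocyte-like nuclei was 50.05 ± 43.8 times the brain mean over 4 libraries (51 nuclei). Grin3a in oligodendrocyte precursor-like nuclei was 5.69 ± 0.588 times the brain mean over 2 libraries (24 nuclei). Grin2c in the oligodendrocyte precursor-like nuclei without transmitter UFIs, 32 in all, was at 0 UFIs. Their median depth was 7282 UFIs, against 12811 in the whole cluster, and so few UFIs cannot show absence. Kidney tubule-like nuclei, most of them from other wells, had 9.48 CPM of Grin2a and 6.89 CPM of Grin2b, and 2.71% of them held a UFI of either gene at 5000 UFIs, against 89.98% and 96.5% of brain nuclei.

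**Figure D4:**
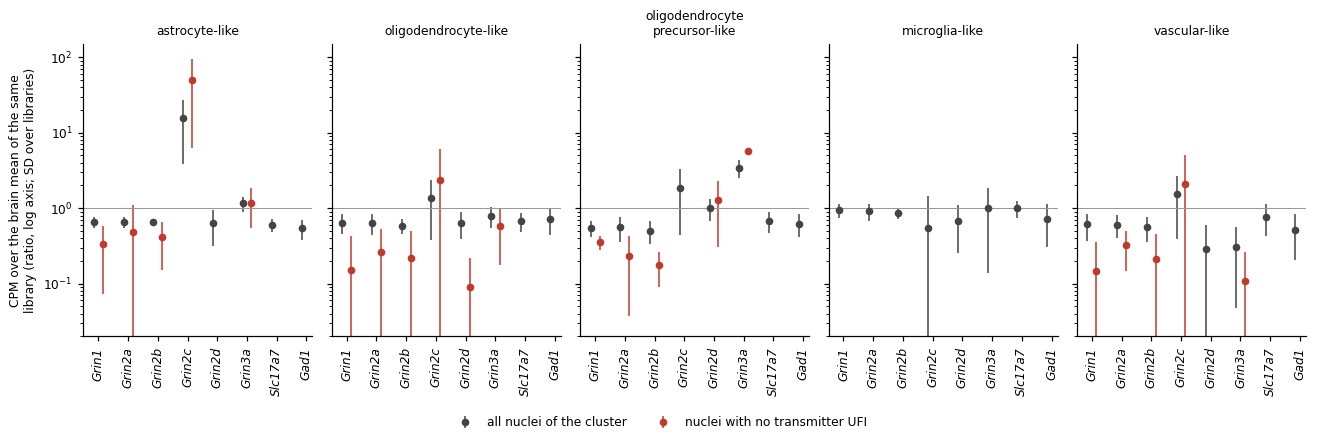
Level of each subunit and of Slc17a7 and Gad1 in 5 glial or vascular clusters as a ratio to the brain mean of the same library (vertical axis, logarithmic), for all nuclei of the cluster (grey) and for nuclei with no transmitter UFI (red). Points are means over libraries, error bars are SD and are cut at the lower axis limit, and values at 0 are not drawn. Grin2c in astrocyte-like nuclei (15.5) and Grin3a in oligodendrocyte precursor-like nuclei (3.42) lie above the line at 1, where the brain mean is.

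The study asked whether freezing the tissue or adding the preindex alters expression, and the subunits were read in both comparisons over all nuclei of a library. For storage, no subunit passed. Grin1 was 213 to 271 CPM in the 4 frozen and 228 to 298 CPM in the 3 fresh libraries, and the ranges of all 6 subunits tested overlapped. The log2 differences of frozen against fresh were -0.11 for Grin1, -0.12 for Grin2a, -0.19 for Grin2b, 0.50 for Grin2c, -0.23 for Grin2d and 0.03 for Grin3a, with adjusted p-values of 0.253, 0.287, 0.164, 0.177, 0.272 and 0.741 (edgeR's quasi-likelihood test with Benjamini-Hochberg adjustment). All genes together gave 40 calls, 0.207% of 19299, against 2901 at an unadjusted p under 0.05 and 318 calls with DESeq2, which also called Grin2b (-0.20, adjusted p = 0.0321). Of the unadjusted p-values of the subunits, 5 of 6 were under 0.05. Of the 32 partners, 0 were called by edgeR. Without kidney, liver and cerebellar nuclei no subunit passed either, and Grin3a, at 108 to 113 CPM in frozen and 99.7 to 106 CPM in fresh libraries, no longer overlapped (0.13 ± 0.046, adjusted p = 0.357 by edgeR).

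For the primer, 5 of 6 subunits passed, in a comparison in which 15.8% of 19299 genes were called, 1521 higher and 1520 lower with the preindex. Under scaling by library totals the split was 856 higher and 2327 lower, with DESeq2 1913 and 1158, and under the former the median over all genes moved from -0.02 to -0.10. Grin2c was 7.45, 5.19 and 3.83 CPM in the Index libraries and 17.4, 20.3, 14.4 and 15.0 CPM in the No_index libraries, with no overlap, and fell by 1.64 on the log2 scale (SE 0.14, adjusted p = 0.00133 by edgeR). Grin1 was 213 to 228 against 270.0 to 298 CPM, also without overlap (-0.26 ± 0.038, adjusted p = 0.00605 by edgeR). Grin2d was 19.97 to 23.2 against 24.4 to 35.6 CPM (-0.40 ± 0.087, adjusted p = 0.0218 by edgeR), again without overlap.

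The long genes Grin2a and Grin2b were higher with the preindex. Grin2b was 2428 to 2773 against 2026 to 2394 CPM, without overlap (0.31 ± 0.050, adjusted p = 0.00835 by edgeR), and Grin2a 1839 to 2034 against 1670 to 1849 CPM, with overlap (0.23 ± 0.048, adjusted p = 0.0191). Grin3a, at 99.3 to 105 against 103 to 105 CPM, did not pass (0.06 ± 0.039, adjusted p = 0.315 by edgeR) and turned to -0.02 under scaling by library totals. Within frozen libraries alone the log2 ratio of Index to No_index was -0.32 for Grin1, 0.15 for Grin2a, 0.24 for Grin2b, -1.58 for Grin2c and -0.43 for Grin2d, and within fresh libraries -0.37, 0.16, 0.22, -1.94 and -0.57.

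Nuclei of unequal makeup moved with the primer. Without kidney and liver nuclei, Grin1 no longer passed (-0.13 ± 0.044, adjusted p = 0.0624 by edgeR), Grin3a did (0.19 ± 0.047, adjusted p = 0.0191), and Grin2a and Grin2b were at 0.36 and 0.45. Without cerebellar clusters as well, Grin2c was at -1.08 ± 0.16 (adjusted p = 0.00200 by edgeR), Grin1 at -0.13 (adjusted p = 0.0709) and Grin3a at 0.14 (adjusted p = 0.0629). The neuron-like clusters take in the cerebellar ones again. Cerebellar granule neuron-like nuclei numbered 77, 93, 42 and 51 in No_index libraries and 0, 1 and 3 in Index libraries. In neuron-like nuclei alone, cerebellar ones included, Grin2c was at -2.30 ± 0.18 (adjusted p = 5.09e-05 by edgeR). In the same nuclei Grin1 was at -0.12 (adjusted p = 0.124 by edgeR) or, under scaling by totals, at -0.27 (adjusted p = 0.00473). There the median over all genes was -0.04 and, under scaling by totals, -0.20. These subsets kept unequal mixes of neuron-like clusters. The Baiap3 and Rmst cluster held 124 of 700, 131 of 800, 184 of 1000 and 237 of 1300 No_index nuclei. In Index libraries it held 275 of 2300, 255 of 1998 and 457 of 3100, a smaller share. Upper layer cortical neuron-like nuclei were 28, 39, 66 and 82 of the same No_index nuclei. They were 177, 141 and 274 of the Index nuclei, a larger share. The part of this mix in the primer differences was not tested.

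The Grin2a call was lost without any one of No_index_frozen replicate 2, Index_frozen replicate 1 or 2, or No_index_fresh replicate 1 (adjusted p = 0.0585, 0.0694, 0.0877 and 0.0521 by edgeR), and that of Grin2d without any one of the same libraries (adjusted p = 0.0732, 0.0561, 0.0884 and 0.0619) and with a replicate block (adjusted p = 0.0576). With storage left out of the model, Grin2a and Grin2b lost their calls (adjusted p = 0.0647 and 0.0586 by edgeR).

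Within clusters, CPM of Grin1 was lower in Index than in No_index libraries in 12 of 12 neuron-like clusters with enough nuclei in all libraries, and Grin2c likewise in 12 of 12. Grin2b was higher in 11 of 12, while Grin2a was higher in 8, Grin2d in 5 and Grin3a in 7. These counts share the libraries and their scaling by totals. Under scaling by totals, the median log2 difference over all genes in neuron-like nuclei together was -0.20, with 680 genes called higher and 4051 lower. The share of all genes that were lower in every cluster was not computed. For Grin2c, upper layer cortical neuron-like nuclei held 6 UFIs and layer 6 corticothalamic ones 5, against 397 in thalamic ones. In astrocyte-like nuclei Grin2c was higher with the preindex (means 155 and 109 CPM), with overlap. It was lower in oligodendrocyte-like, oligodendrocyte precursor-like and vascular-like nuclei. Grin2b was likewise higher in astrocyte-like nuclei, without overlap, and lower in the other clusters just named, with overlap. In 5 forebrain glutamatergic clusters together, Grin2c was 2.58 to 4.88 CPM in No_index libraries (92 UFIs) and 0.200 to 0.308 CPM in Index libraries (8 UFIs). In the same nuclei the sum of 5 cerebellar granule markers (Cbln3, Fat2, Gabra6, Zic1 and Cbln1) was 21.8 to 57.2 CPM in No_index libraries, where 5 of 5 were above 0, and 1.30 to 2.85 CPM in Index libraries, where 3 or 4 were. The part of cerebellar RNA in the Grin2c difference was not tested.

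Gene span also moved with the primer difference. The median log2 difference of Index against No_index was -0.17 over 4733 genes under 10 kb, -0.05 over 5680 genes of 10 to 30 kb, 0.03 over 5442 genes of 30 to 100 kb, 0.09 over 2074 genes of 100 to 300 kb and 0.14 over 589 genes over 300 kb, of which 167 were called higher and 11 lower. Spearman's rho across 18518 genes, which are not independent replicates, was 0.221. Grin1 and Grin2c, which were lower, fall in the class of 10 to 30 kb, and Grin2a and Grin2b, which were higher, in the longest. Grin2d, at -0.40, lies in the class of 30 to 100 kb, in which 444 genes were called higher and 355 lower, and Grin3a, which did not pass, in that of 100 to 300 kb, and the part of span in their differences was not tested. Of the 32 partners, 8 were higher and 4 lower with the preindex, against 15.8% called of all genes. The kinase Dapk1 (0.40 ± 0.057), Neto1 (0.40 ± 0.083) and Actn2 (0.36 ± 0.048) were the highest, and the calmodulin gene Calm3 (-0.60 ± 0.060) the lowest. The Neto1 call was lost in 3 of the 7 fits that left out 1 library.

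The difference of the storage effect between primers was fitted as an interaction, in which 16.4% of 19299 genes were called. It rests on the single Index_fresh library, whose own deviation cannot be told apart from the interaction. It called 0 of 6 subunits (adjusted p from 0.317 for Grin2a to 0.982 for Grin2d by edgeR's quasi-likelihood test) and 14 of 32 partners, with the activity-regulated scaffold Homer1 lowest at -1.01 ± 0.085 (adjusted p = 1.60e-06) and Src highest at 0.33 ± 0.078. The interaction values of the subunits ran from -0.11 ± 0.067 for Grin2a to 0.24 ± 0.23 for Grin2c on the log2 scale. Without kidney and liver nuclei 1476 in place of 3168 genes were called, again with 0 subunits.

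**Figure D5:**
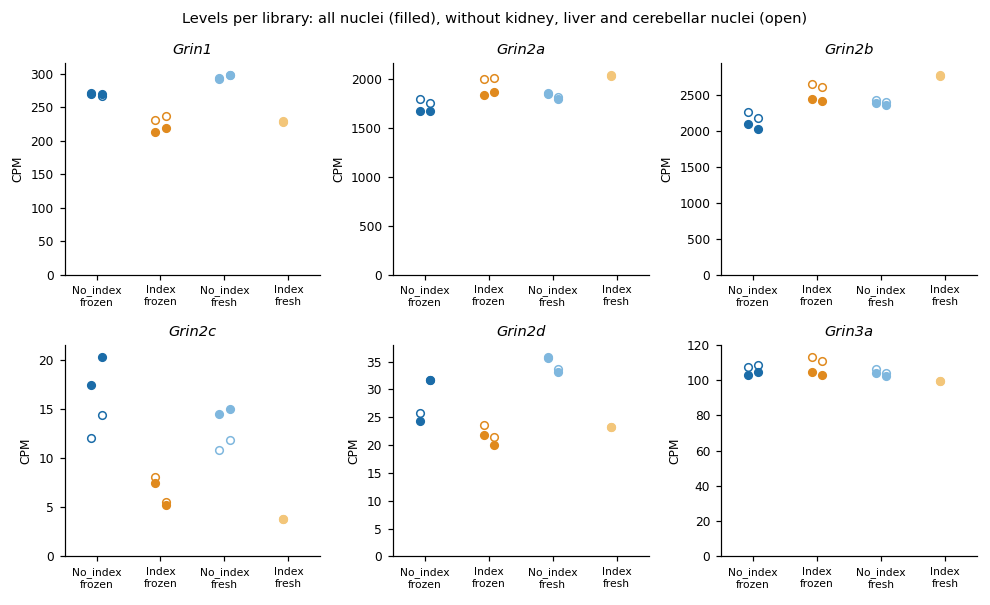
CPM of 6 subunits (vertical axes) in each of the 7 libraries (horizontal axis, by group), over all nuclei (filled) and without kidney, liver and cerebellar nuclei (open). Grin2c over all nuclei is 14.4 to 20.3 CPM in the 4 No_index libraries and 3.83 to 7.45 CPM in the 3 Index libraries.

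For each subunit the 5 genes with the most similar levels over clusters were listed, by Pearson's r of log2(CPM + 1) over the 23 clusters of at least 50 nuclei, among 8332 genes. Clusters share libraries and depth, and r is given as a description. Grin1 was most like Scn2a (0.993), a neuronal sodium channel, and Grin2a like the cell adhesion gene Nrcam (0.959). The list of Grin2b held the adhesion gene Lrfn5 (0.981) and the synaptic vesicle priming gene Unc13a (0.980). These lists rested on the kidney cluster: over the 22 other clusters the closest genes were Scn2a for Grin1 (0.828), Msra for Grin2a (0.865) and Nphp4 for Grin2b (0.771).

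Grin2c was most like Myh14, at 0.813 with and 0.907 without the kidney cluster. Grin2d was most like Vwc2 (0.908), followed by Nxph1, Usp36, Ankrd55 and Alk, and Grin3a like Dner (0.861), followed by Carmil3, the kainate receptor gene Grik1, Nav1 and Stambpl1. Without the kidney cluster Sema4g (0.936), Chd6 and Gbf1 came before Vwc2 for Grin2d, which was the fourth, and Ppp2r5e (0.848) came before Dner for Grin3a. Among the subunits, over the 22 clusters without kidney, r was 0.601 for Grin2a with Grin2b, 0.620 for Grin2d with Grin3a and -0.585 for Grin2a with Grin2d.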

How the data were processed

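Single-nucleus total RNA libraries of mouse brain were used, 7 in 4 groups, and 5 further samples of other designs were not used here. The authors deposited a matrix of UFI counts per gene and nucleus for each library, not normalized, and the submitters' processing notes name cutadapt, UMI-tools, STAR, featureCounts and Scanpy. The genome build, the annotation and the strand setting behind the counts are not given in the sources used here. Spans and coordinates are those of the GENCODE annotation on GRCm38 and promoters those of RefSeq (GRCm38.p6). Symbols of 95.95% of genes in the primer comparison matched. All 11198 deposited barcodes were kept, and 0 columns lacked a sample.

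Nuclei were scaled to 10000 counts and clustered without batch integration in scanpy 1.11.5 (2000 variable genes, the subunits left out, 40 principal components, 10 neighbours, Leiden resolution 0.4). A cluster was named where at least 3 markers and 50% of a list reached 10 CPM and 2 times the mean. No doublet caller was run, and the 487 nuclei with at least 2 UFIs of each transmitter set were left out of the gates. Shares of nuclei with a UFI were computed after thinning to 5000 UFIs, with Clopper-Pearson intervals at 95%, which cover counting error only.

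Counts summed per library, or per library and gate, were tested with edgeR 4.0.16 (R 4.3.3) by its quasi-likelihood test with TMM scaling at an adjusted p of 0.05 (Benjamini-Hochberg), on all genes that passed the edgeR filter on low counts. Storage and primer were fitted together, and gates with the library as a block. The SE beside an edgeR value was not estimated by the fit. It is the absolute log2 difference divided by the square root of the test's F statistic, and is a rough guide only. DESeq2 1.42.0, other filters, scalings, gates and subsets, a replicate block and leaving out each library were alternatives. The fit was tested on simulated data, where it called 200 of 200 genes changed by 1.5 on the log2 scale, with 5.21% false calls for the primer and 2.91% for the gates. Smaller changes, such as those of most subunits for storage and primer, were not simulated.

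All subunits were described, the 5 genes most like each over clusters were listed, and partners were named as up to 5 called genes with the largest change in each direction. Some genes that this rule selects are not reported here. The members, gene lists and tests were chosen with earlier results of these data known. The additions marked as made after seeing the data were the subsets without cerebellar nuclei, also in the gates, the interaction without kidney and liver nuclei, the scaling by library totals alone, the gates on single transporters, the likeness without the kidney cluster and the glial nuclei without transmitter UFIs.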

Additional observations from a re-analysis of the deposited data

Results flagged for a closer look

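Grin3a over all nuclei varied little between libraries, and the library Index_fresh replicate 1 stood apart at 99.3 CPM, with the nearest library at 103 CPM. Its gap to that library was 0.597 of the whole range of the 7 libraries. Of 47 groups of values examined in this way 1 stood out, and chance gives about 1 in 20. Index_fresh replicate 1 was the only library of its group and, at 9012 UFIs, had the lowest median depth per nucleus.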

How the results depend on the processing

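Storage gave 40 calls, which became 318 with DESeq2, 1937 without a filter on low counts, 5 with a replicate block, 0 with the primer left out of the model, 80 in neuron-like nuclei (94 under scaling by totals) and 24 without kidney, liver and cerebellar nuclei. Leaving out 1 library gave 4 (without Index_frozen replicate 1) to 840 (without Index_fresh replicate 1). Without the filter, Grin2a, Grin2b and Grin2c were also called. The primer gave 3041 calls, which became 4787 without the filter, 1731 with a replicate block and 4731 in neuron-like nuclei scaled by totals, with 1009 (without Index_frozen replicate 2) to 5668 (without Index_fresh replicate 1) when 1 library was left out. In both comparisons leaving out any library but No_index_fresh replicate 2 moved the count by over 1.5 times. DESeq2 called 1913 genes higher and 1158 lower for the primer. Replicate numbers did not pair the libraries (correlations of deviations -0.0127, 0.0421 and -0.0429). The interaction gave 1476 calls without kidney and liver nuclei, where its value turned to 0.12 for Grin1, 0.0510 for Grin2a, 0.0815 for Grin2b and 0.12 for Grin3a, none called. Grin3a for the primer turned to -0.0204 under scaling by totals. Slc17a6 against GABAergic nuclei gave 2752 calls and turned Grin1 (-0.0534), Grin2a (-0.36), Grin2b (-0.42), Grin2d (0.73), Grin3a (0.14), Dlg1 (-0.29), Camk2a (-0.39) and Slc6a9 (0.21). The highest Grin3a cluster level was 907.7 CPM at a clustering resolution of 1.0 and 325 CPM with 20 principal components. Thinned to 3000 UFIs, 50.8% of brain nuclei held a UFI of Grin1, 85.9% of Grin2a, 94.6% of Grin2b, 2.40% of Grin2c, 7.17% of Grin2d and 18.3% of Grin3a. The causes were not tested. Over the subunits, 85 of the primer values under alternatives kept direction and call, 14 lost the call and 2 gained it, and 102 of the gate values kept both and 7 lost the call. Grin2c for the primer kept its call throughout. Only 1 library was Index_fresh, and depth limits Grin3b, with 32 UFIs.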

Other observations

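The Baiap3 and Rmst cluster, the largest of all, held both glutamatergic and GABAergic nuclei by the gates (428 and 724). Grin2d, which joins slowly closing receptors, was 72.1 ± 13.7 CPM in its glutamatergic and 72.1 ± 11.9 CPM in its GABAergic nuclei (mean ± SD over 7 libraries). Grin3a was 184 ± 45.0 CPM in the former and 196 ± 41.2 in the latter, also within the spread. Grin2a was 931 ± 95.8 CPM in glutamatergic and 649.8 ± 108 CPM in GABAergic nuclei. The share of Grin2a in the UFIs of Grin2a and Grin2b was 39.9 ± 3.63% and 31.3 ± 4.26%. These values were chosen after seeing the data and were not tested.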
